A study of Mus musculus with 16 samples.

Results

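The 28 genes described here encode proteins of the small (40S) subunit of the cytosolic ribosome: Rpsa, Rps2, Rps3, Rps3a1, Rps4x, Rps6, Rps7, Rps9, Rps10, Rps12, Rps13, Rps14, Rps15, Rps15a, Rps16, Rps18, Rps19, Rps20, Rps21, Rps23, Rps24, Rps25, Rps26, Rps27, Rps27a, Rps28, Rps29 and Fau. They were chosen by name among the 22392 genes of the count table. Each gene is represented by the transcript with the largest sum of counts over the 16 libraries, out of 95 transcripts listed for them. All 28 genes passed the filter on low counts and were tested in every comparison.

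Ribosome footprints (Ribo-seq) and RNA (RNA-seq of the same lysate) were counted in the mouse hepatoma line Hepa1-6. The groups were unedited WT cells and the exon 5 KO clones KO1, KO2 and KO3, in which Cas9 was used to delete exon 5 of Eef1d, a subunit of a guanine nucleotide exchange factor for elongation factor 1A. Each clone is a single clonal line, KO1 and KO2 were made with the same pair of guides and KO3 with another, and each line had 2 replicates per assay. The cells were grown in DMEM with 10% FBS and the labels name no treatment. Nothing in the labels says that the replicates were separate cultures, so p-values measure the spread between these libraries, which may be technical. The comparisons ask whether RNA, footprints or translation efficiency (TE, footprints relative to RNA) of these genes changed without exon 5, and whether the clones differ.

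The 40S subunit binds initiation factors and the initiator tRNA, scans mRNA for the start codon, and holds the decoding center where codon and anticodon are matched. Its head, body and platform are built by ribosomal proteins on the 18S rRNA, and the proteins are needed in equal numbers per subunit. Most mRNAs of ribosomal proteins begin with a 5′ terminal oligopyrimidine tract (5′TOP), a C followed by pyrimidines, through which mTORC1 and LARP1 control their translation together. Ribosomal protein genes also have many processed pseudogenes, which are intronless copies of their mRNAs.

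With 1 transcript per gene, RNA-seq libraries held 10493030 to 12946819 counts and Ribo-seq libraries 1138943 to 4886753, of which KO1 replicate 1 was the deepest and KO1 replicate 2 the shallowest. The 28 genes took 3.32% to 3.99% of RNA counts and 2.25% to 2.37% of footprint counts. The transcript of Eef1d with exon 5 had 116% of the count of the transcript without it in WT RNA-seq libraries, and 89.8% to 92.6% in those of the clones, with reads of shared exons counted on both. Of 10 hepatocyte markers, 5 were at 10 CPM (counts scaled to equal library totals) or more in every RNA-seq library, while Apoh and Serpina1a stayed under 1 CPM. No fibroblast, endothelial, immune or muscle marker reached 10 CPM in all RNA-seq libraries.

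How far a count can be tied to a gene varied among the members. For each counted codon, the 30 bases around it, about the length of a footprint, were searched in all chromosomes of GRCm38. A median of 96.2% of a member's windows also occurred elsewhere, against 1.47% for all genes tested for TE, and 21 of the 28 members had at least 90% of their windows elsewhere. For windows of 100 bases these medians were 73.3% and 1.08%, so reads longer than footprints, as in RNA-seq, can match copies too. Windows found at more than 10 places in all matter most, because STAR by default drops a read with more than 10 alignments. The methods list uniquely mapped reads per library, and yet 11 members with every window elsewhere had footprint counts. Whether the authors kept the default for the deposited counts is not given in the sources used here. Such windows made up 83.8% of the windows of Rps2, 55.3% of Rps12, 28% of Rpsa, 21.7% of Rps6 and 20.1% of Rps23, and 16 members had none. The window with the most copies in Rps2 and a window of Rps12 with 23 other places (the most in Rps12 was 25) are given here. Beside them is a window of Rps3 that occurs once, all from GRCm38 with the A-site codon in capitals.
Rps2, codon 278, chr17:24721818-24721847, plus strand, coding exon, at 52 other places: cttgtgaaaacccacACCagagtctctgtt
Rps12, codon 118, chr10:23785244-23785273, minus strand, coding exon, at 23 other places: gactatggcaaagaaTCTcaggccaaggat
Rps3, codon 6, chr7:99483592-99483621, minus strand, coding exon, at 0 other places: atggcggtgcagattTCCaagaagaggaag

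One intronless copy is itself in the table. Rps27rt, a retrocopy of Rps27, had 1614 and 965 footprint counts in the WT libraries, beside 1582 and 950 for Rps27. Its RNA counts were 239 and 235, beside 5505 and 6024 for Rps27. Footprints stood at nearly the same number on the gene and its copy, while RNA reads did not. All 75 footprint-sized windows of Rps27 occur elsewhere.

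RNA levels per length differed about 5-fold among the members in WT cells. The highest were Rps26, a protein at the mRNA exit channel, with 6430 and 6564 RPKM (CPM per 1000 coding bases counted) in the 2 replicates, and Rps2, at the mRNA entry channel, with 5359 and 5302 RPKM. The lowest were Rps7, a eukaryote-specific body protein, with 1289 and 1282 RPKM, and Rps13 with 1418 and 1403 RPKM. The ratio of the highest to the lowest was 4.99 and 5.12 in the WT libraries.

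Footprints per length spanned 30.6-fold and 32.9-fold in the WT libraries. Rps26 was the highest again with 6456 and 6243 RPKM, followed by Rps21 with 3837 and 3660 RPKM. The lowest were Rps2, with 211 and 190 RPKM, and Rps12, with 393 and 327 RPKM, although both were among the 3 highest for RNA. These are also the members with the largest share of windows at more than 10 places. Without the 5 members at 20% or more, the span of footprint levels was 7.41-fold and 7.64-fold, and log2 RNA and footprint levels of the other 23 had a Pearson's r of 0.73 (Spearman's rho 0.59). Over all 28, the Spearman's rho was 0.17 between the RNA and footprint levels and −0.55 between the share of such windows and the footprint level. The points of these correlations are genes measured in the same libraries.

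TE in WT cells, the ratio of footprint CPM to RNA CPM, was highest for Rps15a with 1.59 and 1.58 and for Rps10, a head protein at which stalled ribosomes are ubiquitylated, with 1.43 and 1.38. TE was lowest for Rps2 with 0.0394 and 0.0358 and for Rps12 with 0.0873 and 0.0734. Rpsa came next from below with 0.227 and 0.225. The median of the members, 0.824, lay near that of 11632 genes with counts in both assays, 0.882 (quartiles 0.570 and 1.25). The TE levels of Rps2, Rps12 and Rpsa stood beside the highest shares of repeated windows, and the part of reads with many alignments in them was not tested.

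**Figure D1:**
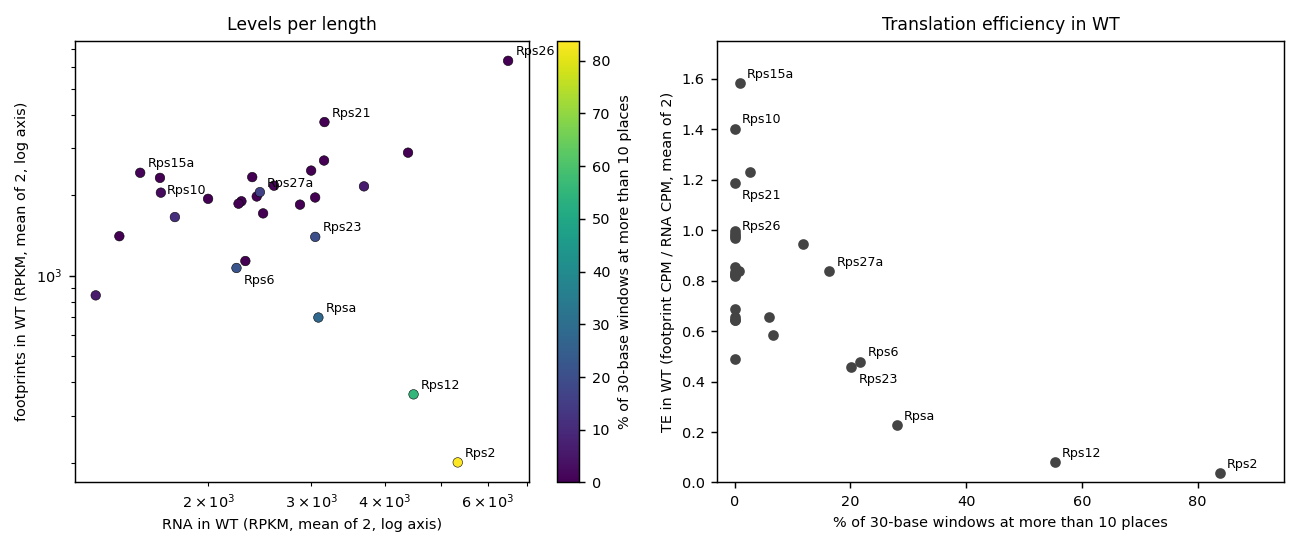
Levels of the 28 genes in WT cells. Left, RNA against footprints in RPKM (mean of 2 replicates, both axes logarithmic), colored by the share of 30-base coding windows found at more than 10 places of the genome. Right, TE against that share. Rps2 (83.8%) and Rps12 (55.3%) have the lowest footprint levels and TE.

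RNA of the members changed in both directions in KO1 and KO3 and only downward among the calls in KO2. In KO1, 22 of 28 members were called, 14 higher and 8 lower (edgeR quasi-likelihood test, Benjamini-Hochberg adjusted p under 0.05), against 43.5% of all genes tested (20% higher, 23.4% lower). In KO2, 7 members were called, all lower, against 21% of all genes (11.4% higher, 9.59% lower). In KO3, 15 were called, 13 higher and 2 lower, against 42% of all genes (21.1% higher, 20.9% lower). The KO3 count was 9 where every library had to hold 10 counts or more, and 7, 8, 8 and 9 without WT replicate 1, WT replicate 2, KO3 replicate 1 and KO3 replicate 2. The log2 RNA changes of the members had medians of 0.13 (KO1), −0.08 (KO2) and 0.10 (KO3), where the median of all genes tested was within 0.01 of 0. With library totals in place of TMM the KO3 median was 0.047.

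The members that moved most differed from clone to clone. In KO1, the lowest was Rps15a, which joins the body, at −0.48 (SE 0.0604, adjusted p = 2.95e-08), and the highest Rps15, a head protein near the decoding center, at 0.40 (SE 0.0459, adjusted p = 5.91e-09). Rps15 turned to the lowest in KO2, at −0.41 (SE 0.0462, adjusted p = 1.26e-08). In KO3, Rps6, the substrate of S6 kinase, was lowest at −0.51 (SE 0.0461, adjusted p = 1.64e-11), and Rps14, a platform protein beside the mRNA exit, highest at 0.50 (SE 0.0451, adjusted p = 1.43e-11). These are edgeR adjusted p-values.

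Rps15 and Rps15a moved apart between clones. Rps15 had RNA levels of 1245 and 1200 CPM in WT cells, 1568 and 1649 for KO1, 913 and 923 for KO2, and 1325 and 1340 for KO3. KO1 was the highest line and KO2 the lowest, with no overlap among the 4 lines. Rps15a had 559 and 552 CPM in WT cells, 386 and 410 for KO1, 584 and 505 for KO2, and 577 and 519 for KO3, so only KO1 was low. Rps6 had RNA levels of 1584 and 1634 CPM in WT cells, 1769 and 1904 for KO1, 1559 and 1518 for KO2, and 1130 and 1127 for KO3. Only KO3 was low for this gene. Rps14 had 1853 and 1883 CPM in WT cells and 2762 and 2536 in KO3, with 2311 and 2373 in KO1 and 1709 and 1776 in KO2. Both KO1 and KO3 were above WT cells, and KO2 was below them.

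RNA changes of the members varied with those of their chromosomes. The 28 members lie on 14 chromosomes, and the number with the sign of their chromosome's median was 24 for KO1, 21 for KO2 and 16 for KO3. The same number over all genes is not given here. In KO1, 5 of the 6 members on chromosome 7 (Rps3, Rps13, Rps15a, Rps16 and Rps19) and both members on chromosome 9 (Rps25 and Rpsa) were called lower. The median RNA change of the other genes in KO1 was −0.44 for 878 genes of chromosome 7 and −0.36 for 646 genes of chromosome 9. In KO2, all 3 members on chromosome 10 (Rps12, Rps15 and Rps26) and both on chromosome 12 (Rps7 and Rps29) were called lower. Here the other genes had a median of −0.26 on chromosome 10 and −0.21 on chromosome 12. Of all genes tested, 23.4% were called lower in KO1, 9.59% lower in KO2 and 21.1% higher in KO3. Shares on single chromosomes are not given here. Rps26 moved with Rps15 on chromosome 10, with RNA levels of 2045 and 2087 CPM in WT cells and 1571 and 1586 in KO2. In KO3, Rps7 and Rps29, which is a small zinc-binding head protein, were called higher at 0.39 and 0.34, where the other genes of chromosome 12 had a median of 0.33, and Rps14 stood beside a median of 0.32 on chromosome 18.

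Across the 28 members, Pearson's r between the RNA change and the median change of the other genes on the same chromosome was 0.85 (KO1), 0.92 (KO2) and 0.78 (KO3), with Spearman's rho of 0.77, 0.84 and 0.69. Members on 1 chromosome share the same median, and the 3 clones share the WT libraries. The same correlations over all genes are not given here. Taking away the chromosome's median lowered the SD of the members' RNA changes from 0.272 to 0.143 (KO1), from 0.127 to 0.0551 (KO2) and from 0.183 to 0.115 (KO3). The median of what remained was 0.10, −0.05 and 0.06. What the genes of a chromosome share was not tested. Clonal origin and loss of exon 5 cannot be told apart within 1 clone.

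Single members departed from their chromosome. Rps14 in KO1 rose by 0.33, where the other genes of chromosome 18 had a median of −0.04. Rps9, a body protein near the entry channel, was at −0.08 in KO1 (adjusted p = 0.173, not called), against −0.44 for chromosome 7. Rps6 in KO3 was at −0.51, against −0.14 for 723 genes of chromosome 4 and −0.29 for the 27 genes within 10 Mb of it. Rps20, which fell by 0.14 in KO3, was at the median of this chromosome but apart from the 32 genes within 10 Mb of it, whose median was −0.53.

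**Figure D2:**
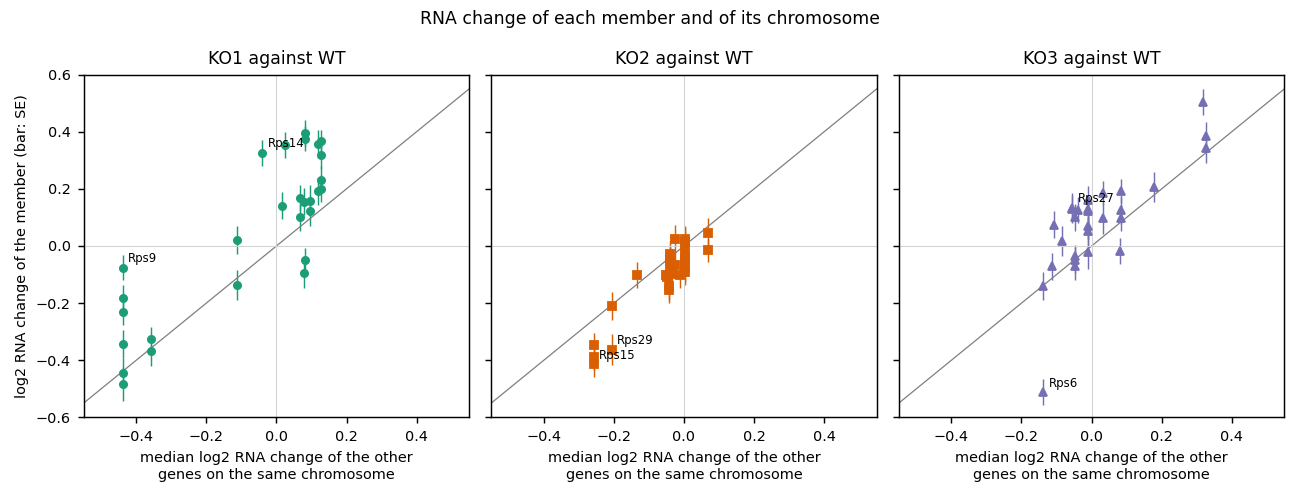
Log2 RNA change of each member (vertical axis, bar: SE) against the median log2 RNA change of the other genes on its chromosome (horizontal axis) in KO1, KO2 and KO3 against WT. The grey line marks equal values, and the 2 members farthest from their chromosome's median are named in each panel. Points follow the line, with Pearson's r of 0.85, 0.92 and 0.78 over 28 members.

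Footprints were called for fewer members than RNA, and for a smaller share of all genes as well. In KO1, 8 of 28 members were called, 2 higher and 6 lower, against 26.3% of all genes tested (11.8% higher, 14.5% lower). In KO2, 5 were called, 3 higher and 2 lower, against 11.7% of all genes (6.56% higher, 5.11% lower), and DESeq2 called 2. In KO3, 6 were called, 5 higher and 1 lower, against 28.8% of all genes (14.3% higher, 14.5% lower). The KO2 count fell to 3 without WT replicate 2 or KO2 replicate 1 and to 2 without KO2 replicate 2, and the KO3 count to 3 without KO3 replicate 2. The median footprint change was 0.01, 0.06 and 0.03 in KO1, KO2 and KO3, where all genes tested had medians within 0.01 of 0.

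The largest footprint changes were mostly those of genes whose RNA changed in the same direction. Rps13 had footprint levels of 621 and 575 CPM in WT cells and 415 and 392 in KO1, and they did not overlap. Rps13 fell by 0.56 in KO1 (SE 0.0675, adjusted p = 1.14e-08) and Rps15 rose by 0.36 (SE 0.0684, adjusted p = 6.65e-05). Rps26 had 2053 and 1985 footprint CPM in WT cells, 2608 and 2420 in KO1 and 1690 and 1572 in KO2. In KO2, Rps26 fell by 0.31 (SE 0.0620, adjusted p = 0.000426). Rps6 had 775 and 763 footprint CPM in WT cells and 552 and 550 in KO3, below all 6 other libraries. In KO3, Rps6 fell by 0.48 (SE 0.0622, adjusted p = 5.03e-08) and Rps14 rose by 0.40 (SE 0.0651, adjusted p = 4.07e-06). The exception was Rps12 in KO2, which had the highest footprint change of the members, 0.32 (SE 0.0851, edgeR adjusted p = 0.00806), with lower RNA. Across members, RNA and footprint changes had a Pearson's r of 0.86, 0.59 and 0.90 for KO1, KO2 and KO3, with slopes of 0.74, 0.66 and 0.82 over 28 genes in shared libraries.

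TE shifted by small amounts, with medians of opposite sign for KO1 and KO2. Against WT cells, the TE change was below 0 for 23 of 28 members in KO1 (median −0.11), above 0 for all 28 in KO2 (median 0.14) and below 0 for 20 in KO3 (median −0.07). All genes tested had medians within 0.03 of 0, and the comparisons share the WT libraries. Few single genes passed the test. Both assays of a replicate come from 1 lysate, so counts of calls with the lysate as a block are given too. The shares of all genes beside them, here and below, are from the fit without this block. Shares with the block, or at an unadjusted p under 0.05, are not given here. In KO1, 1 member was called (Rps20, lower), against 0.084% of all genes, 10 had an unadjusted p under 0.05, and 4 were called with the lysate as a block. In KO2, 1 member was called (Rps12, higher), against 0.0252% of all genes, 9 had an unadjusted p under 0.05, and 1 was called with the lysate as a block. In KO3, 0 members were called by edgeR, against 0.0588% of all genes, with 1 at an unadjusted p under 0.05, and 0 called by DESeq2 or with the lysate as a block.

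The medians also differed between the 2 replicates of a line. The median log2 TE of the members was −0.21 and −0.36 in the WT lysates, −0.34 and −0.49 for KO1, −0.18 and −0.20 for KO2, and −0.37 and −0.39 for KO3. The KO2 lysates were the highest of the 8, and WT replicate 1 came next. Replicate 1 was above replicate 2 in each line, and the labels do not say whether libraries of the same replicate number were made together. Both KO2 lysates lay above both WT lysates for 19 members, against 17.5% of 11407 genes, and both KO1 lysates below them for 12, against 17.8%. The median change moved with single libraries: without WT replicate 1 it was −0.04 in KO1 and 0.01 in KO3, without KO1 replicate 1 it was −0.19 in KO1, without KO1 replicate 2 −0.07 in KO1, without WT replicate 2 0.07 in KO2 and −0.12 in KO3, and without KO3 replicate 1 −0.04 in KO3.

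**Figure D3:**
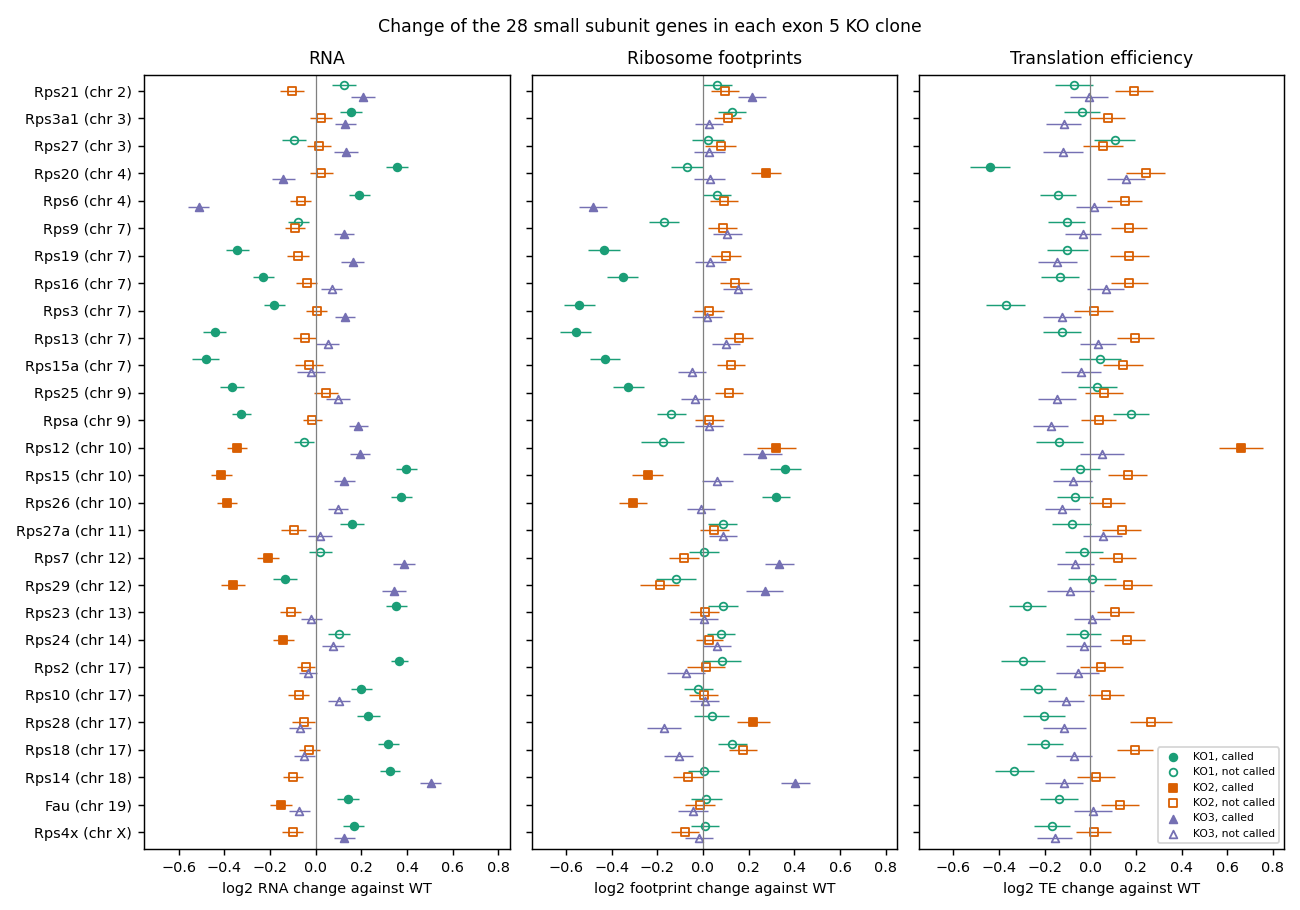
Log2 change of RNA (left), footprints (middle) and TE (right) of the 28 genes in KO1, KO2 and KO3 against WT, ordered by chromosome. Points are fitted changes, bars are their SE, and filled symbols have an adjusted p under 0.05. Among the TE changes, those called are of Rps20 in KO1 (−0.44) and Rps12 in KO2 (0.66).

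Of the comparisons between clones, KO2 against KO1 had the most members called in RNA and in TE. Their RNA differed for 26 of 28 members, 7 higher and 19 lower in KO2, against 50.7% of all genes, with a median of −0.25. Their footprints differed for 12, 10 higher and 2 lower in KO2, against 36.2% of all genes, with a median of 0.03. TE was higher in KO2 for 26 of 28 members, with a median difference of 0.27, beside −0.02 for all genes. Of these, 7 were called, all higher in KO2, against 0.554% of all genes (0.395% higher). Both KO2 lysates were above both KO1 lysates for 23 members, against 18.4% of all genes.

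The 7 called for TE in KO2 against KO1 were Rps12 (0.80), Rps20 (0.68), Rps28 (0.47), Rps18 (0.39), Rps23 (0.39), Rps3 (0.39) and Rps14 (0.36), with SE from 0.0785 to 0.0985 and edgeR adjusted p-values from 1.08e-06 to 0.0269. Rps28 and Rps3 are head proteins, Rps3 with a role at the entry channel, Rps18 is a head protein toward the large subunit, and Rps23 lies at the decoding center. In KO1 against WT, RNA of Rps20, Rps28, Rps18, Rps23 and Rps14 rose by 0.23 to 0.36 while their footprints were not called, and footprints of Rps3 fell by 0.54 with RNA lower by 0.18. With the lysate as a block 16 members were called, and the share of all genes under that block is not given here. Without KO1 replicate 2 or KO2 replicate 1, 2 were called, Rps12 and Rps20, and Rps14 was also lost without KO1 replicate 1 (adjusted p = 0.0736) and with libraries thinned to equal totals (0.122).

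Rps28 had TE of 0.553 and 0.457 in KO1 and 0.727 and 0.692 in KO2. Rps18 had 0.768 and 0.699 in KO1 and 1.00 and 0.933 in KO2, and Rps3 had 0.696 and 0.589 in KO1 and 0.914 and 0.782 in KO2. The lysates of KO1 and KO2 did not overlap for any of them. Rps23 had 0.393 and 0.367 against 0.515 and 0.481, and Rps14 had 0.542 and 0.508 against 0.718 and 0.629. In WT cells each of these 5 genes had a mean TE between those of the clones. With the transcript chosen by footprints alone, the TE difference of Rps28 was 0.41 (adjusted p = 0.0289).

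KO3 differed from KO1 in RNA for 23 members, 13 higher and 10 lower in KO3, against 60.1% of all genes, and in footprints for 18, 13 higher and 5 lower, against 46.9%. TE was called for 2 members, against 0.748% of all genes: Rps20, higher by 0.59 in KO3 (SE 0.0861, adjusted p = 2.30e-05), and Rpsa, lower at −0.35 (SE 0.0770, adjusted p = 0.0127). Rpsa, which also serves as the precursor of a laminin receptor, had TE of 0.264 and 0.251 in KO1, 0.200 and 0.205 in KO3 and 0.227 and 0.225 in WT cells. Its call was lost with libraries thinned to equal totals (adjusted p = 0.156) and without KO1 replicate 1, KO3 replicate 1 or KO3 replicate 2 (0.368, 0.201 and 0.123). With the lysate as a block 5 members were called.

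KO3 differed from KO2 in RNA for 17 members, 15 higher and 2 lower in KO3, against 50.9% of all genes, and in footprints for 10, 5 higher and 5 lower, against 38.5%. TE was below that of KO2 for all 28 members, with a median of −0.18, and both KO3 lysates were below both KO2 lysates for 24, against 18.8% of all genes. Only Rps12 was called in edgeR, at −0.61 (SE 0.0923, adjusted p = 1.25e-04), against 0.21% of all genes, and 5 members were called with the lysate as a block.

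Rps12, a eukaryote-specific protein of the head, had the TE change farthest from the members' median, in KO2. Its RNA was 1660 and 1646 CPM in WT cells, 1583 and 1613 for KO1, 1305 and 1296 for KO2, and 1901 and 1878 for KO3. KO2 was the lowest line, with a log2 change of −0.35 (SE 0.0436, edgeR adjusted p = 1.46e-07), and KO3 the highest, with 0.19 (SE 0.0435, adjusted p = 4.55e-04). Its footprints were 145 and 121 CPM in WT cells, 118 and 121 for KO1, 172 and 164 for KO2, and 163 and 158 for KO3. Footprints were called higher in KO2, as given above, and in KO3, by 0.26 (SE 0.0852, adjusted p = 0.0184), while RNA was called lower in KO2 only.

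TE of Rps12 was 0.0873 and 0.0734 in WT cells, 0.0747 and 0.0747 for KO1, 0.132 and 0.126 for KO2, and 0.0859 and 0.0842 for KO3. Both KO2 lysates stood above the 6 others, which overlapped. The change in KO2 against WT was 0.66 (SE 0.0955, edgeR adjusted p = 8.27e-05), the highest of the members and 0.52 above their median. It was 0.80 against KO1 (SE 0.0985, adjusted p = 1.08e-06), and KO3 was lower than KO2 by the amount given above. In KO1 and KO3 the change against WT was −0.14 (SE 0.102) and 0.05 (SE 0.0955), and neither was called.

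The other members of chromosome 10 did not share the footprint change. Rps15 and Rps26 fell in KO2 both in RNA, by 0.41 and 0.39, and in footprints, by 0.24 and 0.31, with TE changes of 0.16 and 0.07. The footprint rise of Rps12 in KO2 rested on 684 and 487 counts, against 518 and 292 in WT cells. That rise was not called by DESeq2 (adjusted p = 0.142), without WT replicate 2 (0.212) or without KO2 replicate 1 (0.105). Without WT replicate 2 the TE change was 0.56 and was not called. The 12 alternatives that left out no single replicate gave 0.65 to 0.72 with adjusted p-values of 2.77e-10 to 0.00181 (edgeR or DESeq2). With 55.3% of its windows at more than 10 places, the part of reads from copies of Rps12 in the change was not tested.

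Rps20, a head protein with a universal homolog, departed in KO1. Its RNA was 762 and 765 CPM in WT cells and 978 and 978 in KO1, a change of 0.36 (SE 0.0493, adjusted p = 2.13e-07). Its footprints were 386 and 363 CPM in WT cells and 365 and 341 in KO1, a change of −0.07 that was not called. TE was 0.506 and 0.474 in WT cells, 0.374 and 0.349 for KO1, 0.563 and 0.608 for KO2, and 0.543 and 0.562 for KO3. Both KO1 lysates were below the 6 others. The change in KO1 was −0.44 (SE 0.0870, edgeR adjusted p = 0.0123), and it lost its call without WT replicate 1, WT replicate 2, KO1 replicate 1 or KO1 replicate 2, with adjusted p-values of 0.835, 0.0885, 0.0767 and 0.341. The differences of KO2 and of KO3 from KO1 were called whichever replicate of the 2 lines compared was left out. None of its windows occur at more than 10 places, but 94.5% of them also occur elsewhere. The part of reads from copies of Rps20 in the change was not tested.

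**Figure D4:**
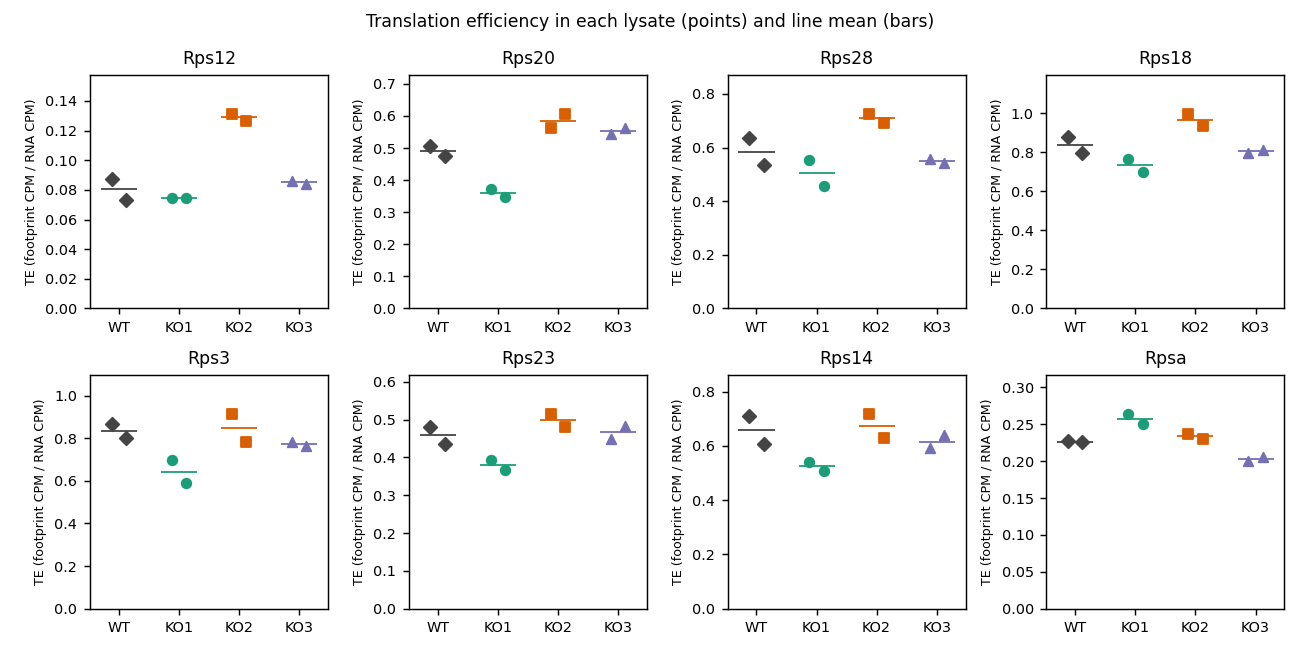
TE (footprint CPM divided by RNA CPM, axes from 0) of the 8 members called for TE in any comparison, in each lysate of WT, KO1, KO2 and KO3 (points) with the line mean (bars). KO2 stands apart for Rps12 (0.132 and 0.126) and KO1 is lowest for Rps20 (0.374 and 0.349).

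The starts of the members were searched for the 5′TOP tract. RefSeq starts on GRCm38 were used for 24 of the 28 members, all but Rps14, Rps20, Rps27a and Rps29. A run of at least 5 pyrimidines (C or T) opening with C, searched on the coding strand only and beginning within 5 bases of the start, was found in 12 of them (50%), against 16.2% of 27025 genes. Within 20 bases it was 75% against 48.4%. Windows of 30 bases of GRCm38, from 10 bases before the start on, are given with the run in capitals for 4 members with the run and for Rps12, where it begins 9 bases downstream.
Rps6, chr4:86857348-86857377, minus strand: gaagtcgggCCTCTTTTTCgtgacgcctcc
Rps10, chr17:27635225-27635254, minus strand: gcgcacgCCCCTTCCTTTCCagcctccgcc
Rps18, chr17:33955646-33955675, minus strand: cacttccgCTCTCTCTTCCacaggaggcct
Fau, chr19:6057937-6057966, plus strand: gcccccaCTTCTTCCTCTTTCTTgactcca
Rps12, chr10:23787190-23787219, minus strand: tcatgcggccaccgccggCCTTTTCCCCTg

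TE differences of members with and without such a run near the start overlapped. Rps14 and Rps20, both called for TE in KO2 against KO1, were in neither set. In KO2 against KO1, the 12 with the run had a median of 0.27 (from −0.05 to 0.40) and the 12 without it 0.24 (from −0.14 to 0.80). In KO1, KO2 and KO3 against WT the medians were −0.12, 0.14 and −0.04 with the run and −0.11, 0.14 and −0.12 without it. In KO3 against KO1 they were 0.10 and −0.01, and in KO3 against KO2 −0.18 and −0.20. These differences were not tested. These are descriptions of annotated starts, which may lie some bases from the starts used in these cells.

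By position in the subunit, 12 members belong to the head and 16 to the body and platform. In KO2 against KO1 the median TE difference was 0.30 in the head, with 5 called higher (Rps12, Rps20, Rps28, Rps18 and Rps3), and 0.23 in the body and platform, with 2 called higher (Rps14 and Rps23), against 0.395% of all genes. All of these calls but Rps12 and Rps20 were lost without KO1 replicate 2 or KO2 replicate 1, and the difference between the positions was not tested. For the 13 proteins with homologs in all domains of life it was 0.32, with 5 called, and for the 15 other members 0.22, with 2 called. Fau and Rps27a, which are made as fusions to a ubiquitin-like protein and to ubiquitin, had TE differences of 0.27 and 0.22 that were not called.

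Of 6 paralogs of the members, 2 were tested, Rps27l and Rps27rt. Rps27l, a paralog of Rps27 induced by p53, was called for TE in KO2 against KO1 (0.49, SE 0.113, edgeR adjusted p = 0.0205). It was also called in KO3 against KO1 (0.48, SE 0.113, edgeR adjusted p = 0.0226). Of all genes, 0.554% and 0.748% were called in these comparisons. Rps27rt went the other way, at −0.25 and −0.40, and was not called. KO1 replicate 2 held 119 footprint counts of Rps27l, and its calls without single replicates are not given here.

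Genes that act on the 40S subunit or on 5′TOP mRNAs were not called for TE. This holds for 23 genes of 40S maturation (such as Nob1, the nuclease that cuts the 18S rRNA precursor), 16 genes around mTORC1 and LARP1, and 7 genes of ribosome ubiquitylation, in all 6 comparisons by edgeR. Only 0.0252% to 0.748% of all genes were called for TE in these comparisons, so no call in lists of this size says little about these genes. Some had few footprints, such as Otud3 with 4 to 19 counts per library. In RNA, 4 maturation genes were called higher and 7 lower in KO1, 4 higher and 0 lower in KO2, and 3 higher and 8 lower in KO3, where 43.5%, 21% and 42% of all genes tested were called. Of the mTORC1 and LARP1 genes, 2 were higher and 4 lower in KO1, 1 higher and 3 lower in KO2, and 4 higher and 5 lower in KO3. Of the ubiquitylation genes, 3 were higher in KO1, and 1 higher and 1 lower in each of KO2 and KO3.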

How the data were processed

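RNA-seq and Ribo-seq counts of WT Hepa1-6 cells and 3 exon 5 KO clones were analysed (4 lines, 2 replicates, 16 libraries). The authors deposited raw counts per transcript. Per the labels and the methods, reads were trimmed with fastp 0.21.0, aligned to mm10 with STAR 2.7.0a, and counted at the A-site on GENCODE coding sequences without the first and last 5 codons. The methods list uniquely mapped reads per library, but give no rule for reads with several alignments in the deposited counts. The labels name polyA RNA as the molecule, whereas their protocol describes rRNA depletion, and the 2 preparations give different RNA counts and TE.

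For each gene, the transcript with the largest summed count was kept (ties by table order). RNA, footprints and TE (the interaction of line and assay) were tested with edgeR 4.0.16 in R 4.3.3 (quasi-likelihood, filterByExpr, TMM within each assay, all lines in 1 fit), with Benjamini-Hochberg adjustment over all genes and an adjusted p under 0.05. Fits were tested on simulated data. CPM and RPKM used the same TMM factors. Chromosome positions and windows came from GRCm38 with GENCODE annotation, and starts from RefSeq on GRCm38.p6. Footprints limit precision, since the shallowest Ribo-seq library held 1138943 counts.

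The members and gene lists were chosen with earlier results of these data known. Genes named with values were Rps12, every member called for TE, per clone the called members with the largest rise and fall, the 2 highest and 2 lowest members in WT cells, and related genes called for TE; Rps14 and Rps9 in KO1, Rps27rt and the members shown beside their chromosomes were added after their values were seen. In each line, the difference between replicates correlated between the assays of 1 lysate across 8357 genes (r of 0.106 in WT, 0.184 in KO1, 0.0882 in KO2 and 0.058 in KO3). Between lines, which share no lysate, these differences correlated as well. There r was 0.0248 to 0.229 for RNA and 0.0545 to 0.0939 for footprints, so the values within lysates do not single out the lysate. Alternatives were other size factors (DESeq2 1.42.0), library totals, TMM without ribosomal protein genes, other filters, all transcripts, another transcript choice, only the lines compared, lysate and replicate blocks, DESeq2's test, thinning, single replicates left out and an adjusted p under 0.1.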

Additional observations from a re-analysis of the deposited data

Results flagged for a closer look

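Differences between clones, tested in the same fit, were found in all 3 measures. RNA of 26, 23 and 17 members and footprints of 12, 18 and 10 members differed in KO2 against KO1, KO3 against KO1 and KO3 against KO2. Of all genes tested, 50.7%, 60.1% and 50.9% differed in RNA and 36.2%, 46.9% and 38.5% in footprints.

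TE in KO2 against KO1 differed for Rps14 (0.36), Rps23 (0.39), Rps3 (0.39), Rps18 (0.39), Rps28 (0.47), Rps20 (0.68) and Rps12 (0.80). In KO3 against KO1 it differed for Rpsa (−0.35) and Rps20 (0.59), and in KO3 against KO2 for Rps12 (−0.61). With 2 samples per line, no line could be searched for a sample far from the others.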

How the results depend on the processing

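Medians of RNA, footprint and TE changes over the 6 comparisons were compared under the alternatives that left out no single replicate. Of these values, 200 moved by less than the spread between replicates and 3 moved more. Another 1 moved more and changed sign from a median larger than that spread. Of the counts of called members, 200 stayed within 1.5 times and 22 did not. With library totals in place of TMM, the median RNA change was 0.047 for KO3 against WT and 0.075 for KO3 against KO2. For KO3 against KO1 it changed sign from 0.028, a median within the spread, to −0.031, and the median footprint change turned to −0.0007. RNA calls for KO3 against WT were 9 with at least 10 counts in each library, and DESeq2 called 2 members in footprints for KO2 against WT.

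TE calls for KO1 against WT were 2 at an adjusted p under 0.1 and with DESeq2, 3 without a filter, with all transcripts and with the replicate block, and 4 with the lysate as replicate block. TE calls for KO2 against KO1 were 12 at an adjusted p under 0.1, without a filter, with all transcripts and with the replicate block, 13 with DESeq2 and 16 with the lysate block. TE calls for KO3 against KO1 were 1 with thinned libraries and 5 with the lysate block. TE calls for KO3 against KO2 were 2 at an adjusted p under 0.1, without a filter, with all transcripts and with only the 2 lines compared, 3 with the replicate block and 5 with the lysate block. The cause was not tested, and the shares of all genes called under these settings are not given here. The lysate block left the TE counts for KO2 and KO3 against WT at 1 and 0. The replicate block, which pairs lines by replicate number, moved no RNA or footprint count by over 1.5 times.

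Leaving out 1 replicate gave 7 to 9 RNA calls for KO3 against WT, and median RNA changes of −0.018 to 0.077 for KO3 against KO1 and 0.12 to 0.17 for KO3 against KO2. Footprint calls were 2 to 4 for KO2 against WT and 3 to 6 for KO3 against WT, and median footprint changes were −0.066 to 0.079 for KO1 against WT, 0.037 to 0.12 for KO3 against KO1 and −0.064 to 0.019 for KO3 against KO2. TE calls were 0 to 1 for KO1 and for KO2 against WT, 2 to 8 for KO2 against KO1, 1 to 2 for KO3 against KO1 and 1 to 2 for KO3 against KO2. Median TE changes were −0.19 to −0.040 for KO1 against WT, −0.12 to 0.013 for KO3 against WT and 0.023 to 0.18 for KO3 against KO1. The largest RNA and footprint changes named for each clone, except the footprint change of Rps12 in KO2, kept their calls in every setting run. Footprint depth limits TE: Rps12 had 141 footprint counts and Rps2 196 in KO1 replicate 2.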
